A study of Mus musculus with 5 samples.

Results

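The regions described here were the ChIP-specific peaks of Nr1d1 (REV-ERBα) that the authors' HOMER annotation placed at a transcription termination site (TTS), the annotated 3′ end of a transcript. They were taken as every row of the class TTS in the annotation of the peaks that did not overlap an IgG peak, and they numbered 285 of 14469 annotated ChIP-specific peaks. The TTS rows of the IgG mock annotation, 290 of 17110, were set beside them. The lists were not built alike: ChIP peaks over an IgG peak had been removed, while 102 of the 290 IgG TTS peaks lay over a ChIP peak and were kept, so values of the 188 others are given where this changes the picture.

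The study mapped Nr1d1 on chromatin of mouse Th1 cells, the CD4 T cells that make interferon gamma. Naive CD4 T cells came from lymphoid organs of wild-type C57BL/6 mice of 4 to 6 weeks. They were activated with anti-CD3 and anti-CD28, polarised with IL-12, IFNγ and anti-IL4, harvested after 3 to 4 days and fixed with formaldehyde. The 5 libraries were 3 Nr1d1 ChIP libraries, 1 IgG mock and 1 input DNA library, and all came from wild-type cells, with no library from cells that lack Nr1d1. The antibody label named the Nr1d1 antibody for the mock and the input as well, so the groups were taken from the titles.

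The deposited lists held 1 set of peaks per antibody and no value per library. The spread between the 3 ChIP libraries and the read depth behind a peak were therefore unknown. The 95% Wilson intervals below cover counting of peaks only, and the p-values, from two-sided Fisher's exact tests adjusted by Benjamini-Hochberg over 6 tests, compare lists and not mice or cultures.

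Nr1d1 is a heme-binding nuclear receptor of the circadian clock that lacks the activation helix of its relatives and recruits the NCoR-HDAC3 corepressor to silence its targets. It binds DNA at AGGTCA half-sites preceded by an AT-rich stretch, and also reaches chromatin through other factors bound there. At the 3′ end of a gene the transcript is cleaved and polyadenylated while RNA polymerase II runs on before release, and in compact parts of the genome the end of a gene lies close to the start of the next.

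One of the ChIP-specific TTS peaks contained a whole microRNA gene, Mir8117, and 5 others had a microRNA as their nearest gene. Genes with a Mir name were nearest to 2.11% of ChIP-specific TTS peaks and 1.32% of all ChIP-specific peaks. For IgG these shares were 0.690% and 1.41%, and the differences were not tested. The Mir8117 hairpin is shown because it is the only one of these 6 that lay inside its peak. Mature microRNAs are shown as products of the genes nearest to the peaks, for Mir8117, Mir295, Mir680-2 and Mir5116. None is shown for Mir718 and Mir7025. The peak (FDR 0.00152) was at chr5:50252701-50253049 and the hairpin at chr5:50252762-50252868 on the plus strand (RefSeq, GRCm38.p6). Capitals mark AGGUCA, the RNA spelling of the half-site letters, at bases 93 to 98 of the hairpin.
Mir8117 hairpin: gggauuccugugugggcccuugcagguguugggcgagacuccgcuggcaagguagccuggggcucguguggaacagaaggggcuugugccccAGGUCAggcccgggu
In the mature sequences capitals mark the seed, bases 2 to 8, through which a microRNA pairs with its targets.
miR-8117: gCUCGUGUggaacagaagggg
miR-295-5p: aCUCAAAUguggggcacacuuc
miR-295-3p: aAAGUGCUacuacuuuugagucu
miR-680: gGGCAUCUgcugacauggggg
miR-5116: uUUGAUAGgaaccccgccuga
For comparison, 3 IgG TTS peaks had a microRNA as their nearest gene, Mir741, Gm23450 and Mir6950, and the mature products of Mir741 and Gm23450 are these.
miR-741-3p: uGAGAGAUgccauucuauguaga
miR-741-5p: uACGUAGAuugguaccuaucaug
miR-935: cCCAGUUAccgcuuccgcuaccgc
All 8 mature sequences shown had different seeds. The letters AGGTCA, read on either strand, stood in 55 of 1005 RefSeq mouse hairpins (5.47%, median length 79 bases) and in 5340 of 32851 RefSeq promoter windows of 300 bases (16.3%). The match in the Mir8117 hairpin is a description of its letters and not a binding site.

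The first comparison asked how large the TTS class was in the Nr1d1 ChIP and in the mock. TTS peaks made up 1.97% of ChIP-specific peaks (95% interval 1.76 to 2.21) and 1.69% of IgG peaks (1.51 to 1.90). The difference of 0.275 percentage points had an interval of -0.0212 to 0.576 and did not pass the test (exact p = 0.0695, adjusted p = 0.417). Against the 11990 IgG peaks lying apart from every ChIP peak, 188 of them TTS (1.57%), the difference was 0.402 points (exact p = 0.0153, adjusted p = 0.0918), which also missed the threshold after adjustment. With 1 peak kept per nearest gene and class the difference was 0.0852 points (3.04% against 2.96%, exact p = 0.733, adjusted p = 1). Among ChIP-specific peaks ordered by FDR and divided into 5 equal parts, the TTS share was 2.32%, 1.62%, 1.97%, 1.73% and 2.21%, from the lowest FDR to the highest. It did not move in 1 direction along the order, and the same shares in the IgG list lay between 1.61% and 1.87%.

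Of all 383 Nr1d1 ChIP peaks of the class TTS, 98 overlapped an IgG peak by 1 bp or more, a share of 25.6% (21.5 to 30.2). Over all ChIP peaks this share was 26.1%, and over the other classes 5017 of 19201 peaks overlapped, which gave a difference of -0.541 points (-4.70 to 4.10, exact p = 0.860, adjusted p = 1). By class the overlap was 36.0% at promoters, 32.6% in exons, 24.9% in introns and 25.1% between genes. The TTS class thus lay beside introns and intergenic regions in this order, and its interval did not reach the promoter share. Seen from the mock, 102 of 290 IgG TTS peaks (35.2%, 29.9 to 40.8) lay over a ChIP peak, beside 29.9% of all IgG peaks.

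**Figure D1:**
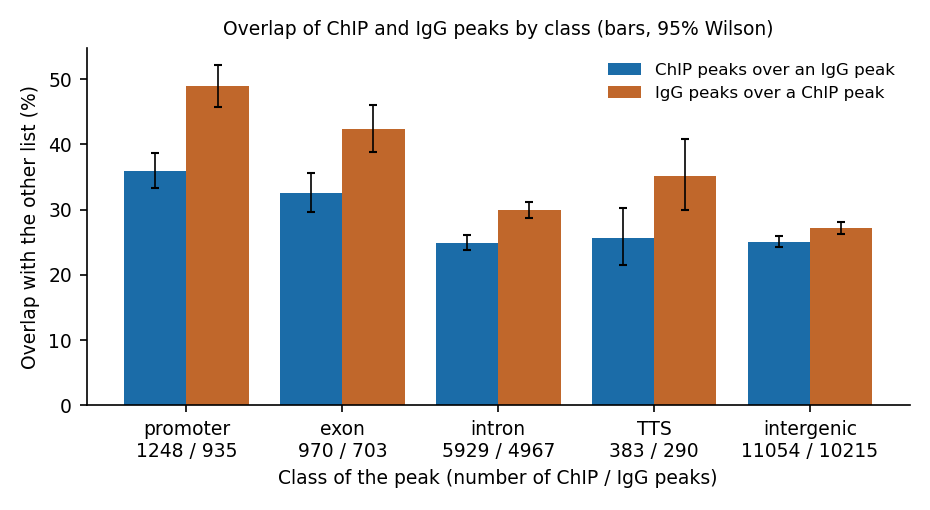
Share of peaks that overlap the other list, for ChIP peaks (blue) and IgG peaks (orange) of each annotation class, in percent with 95% Wilson intervals. The ChIP bar of the TTS class (25.6%) is level with introns and intergenic regions and below promoters (36.0%).

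Peaks removed for their overlap were longer than those kept. The 98 ChIP TTS peaks that met an IgG peak were 325 bp long at the median, with a median FDR of 0.00404, while the 285 ChIP-specific ones had a median length of 200 bp (quartiles 150 and 250, range 100 to 475) and a median FDR of 0.0148 (quartiles 0.00887 and 0.0258). Overlap was what separated these sets and depends on length, so no test was made. Within the ChIP-specific list the TTS peaks had the median length of the other classes (200 bp) and an almost equal median FDR (0.0146 in the others).

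An FDR of at most 0.01 was reached by 86 of the 285 TTS peaks (30.2%, 25.1 to 35.7) and by 29.1% of all ChIP-specific peaks. The difference from the other classes was 1.10 points (-3.99 to 6.71, exact p = 0.693, adjusted p = 1). An FDR printed as 0 was rare in the ChIP-specific list, with 3 TTS peaks (1.05%) beside 1.12% of all its peaks. In the IgG list 50 of 290 TTS peaks (17.2%) had it, beside 17.1% of all IgG peaks. Of the 188 IgG TTS peaks apart from ChIP peaks, 10 had it (5.32%). FDR values from the lists came in steps, and 26 of the ChIP-specific TTS peaks shared the value 0.008802, so ranks by FDR are coarse.

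**Figure D2:**
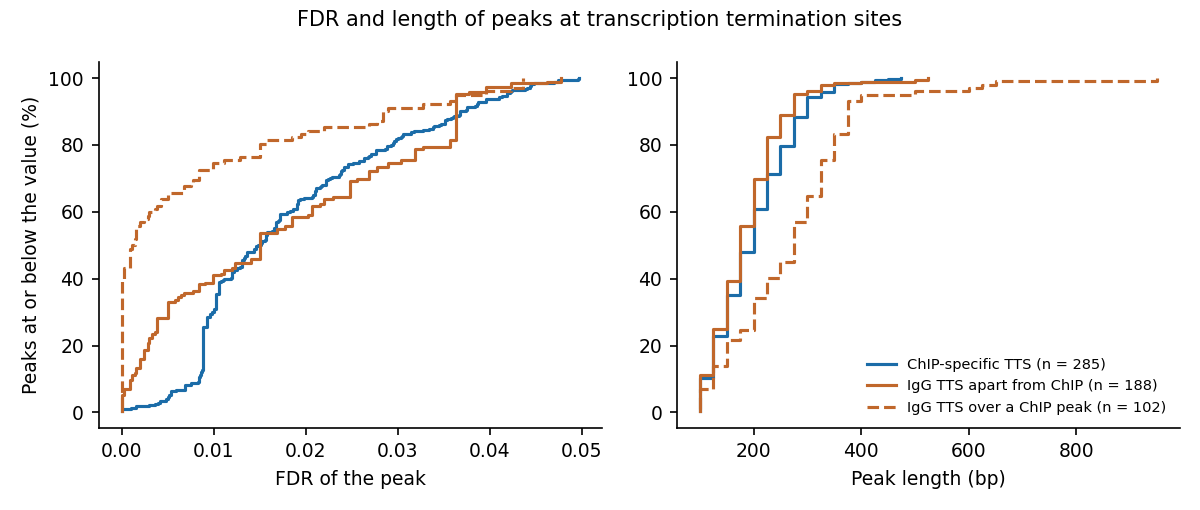
Cumulative share of TTS peaks (percent) by deposited FDR (left) and by peak length in bp (right), for ChIP-specific peaks (solid blue), IgG peaks apart from ChIP peaks (solid orange) and IgG peaks over a ChIP peak (dashed orange). The ChIP-specific curve climbs steeply near an FDR of 0.0088, and the IgG peaks over a ChIP peak are shifted to low FDR (median 0.00131) and greater length (median 275 bp).

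The position of the peaks along genes was compared next. The distance from a ChIP-specific TTS peak to the nearest transcription start site (TSS) had a median of 2626 bp (quartiles 925 and 7908). It was 1992.5 bp for IgG TTS peaks and 32110 bp for the other ChIP-specific classes together. By class, the ChIP-specific median was 106 bp at promoters, 1450.5 bp in exons, 23965 bp in introns and 51928 bp between genes. The peak lay within 200 bp of a start in 17 cases, between 200 and 1000 bp in 61, between 1 and 5 kb in 104, between 5 and 20 kb in 74 and farther in 29. Within 1 kb there were 78 of 285 (27.4%, 22.5 to 32.8) and 76 of 290 IgG TTS peaks (26.2%, 21.5 to 31.6), a difference of 1.16 points (-6.06 to 8.38, exact p = 0.778, adjusted p = 1). The direction turned with the limit, since within 5 kb the shares were 63.9% and 67.6%. Peaks at a start belong to the class promoter-TSS, so the choice of the class TTS leaves few there: none of the 285 and 2 of the 290 IgG TTS peaks overlapped a RefSeq promoter window (250 bp before to 50 bp after a start).

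**Figure D3:**
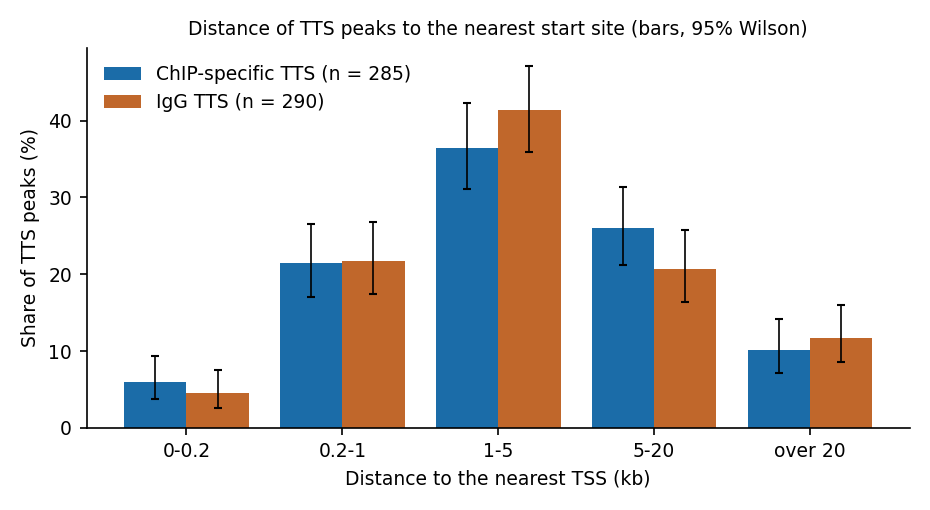
Share of TTS peaks (percent, bars with 95% Wilson intervals) by distance to the nearest transcription start site in kb, for ChIP-specific (blue, 285 peaks) and IgG (orange, 290 peaks). The intervals of both lists overlap in every bin, and 1 to 5 kb is the fullest bin in both.

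Closeness to a start went with the kind of gene. Of the peaks at protein-coding genes 21 of 155 lay within 1 kb of a start (13.5%), of those at pseudogenes 17 of 40 (42.5%) and of those at small RNA genes 15 of 21 (71.4%). Small RNA genes are short, with start and end close together. In the IgG list the same shares were 14.0%, 26.2% and 60.0%.

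The nearest gene was found in RefSeq for 231 of the 285 peaks. It was protein-coding for 155 (67.1%, 60.8 to 72.8), a pseudogene for 40 (17.3%) and a long noncoding RNA for 14. There were 7 small nucleolar RNAs, which guide RNA modification, 6 microRNAs and 6 small nuclear RNAs. In the IgG class these counts were 10, 3 and 5. Small RNA genes of all kinds made up 9.09% of the ChIP-specific and 8.51% of the IgG TTS peaks with a RefSeq gene. Of the 235 IgG TTS peaks with a RefSeq gene 150 were at protein-coding genes (63.8%, 57.5 to 69.7), and the difference of 3.27 points (-5.34 to 11.8) did not pass the test (exact p = 0.496, adjusted p = 1). Coding genes made up 59.1% at the other ChIP-specific classes and 57.1% at the other IgG classes.

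HOMER names the gene with the nearest start, which need not be the gene whose end is covered. HOMER's default TTS window runs from 100 bp before to 1 kb after a transcript end. The end of a RefSeq gene of known strand fell in that window for 56 of the 285 peaks (19.6%, 15.5 to 24.7). For IgG TTS peaks it did so in 53 of 290 (18.3%). Genes without a known strand could not give an end, so these shares are lower limits. In 19 of these 56, the gene with the end was another than the named one. RefSeq here gives 1 end per gene, and strand was known for the nearest gene of 138 peaks: 48 lay within 1 kb of its end (34.8%), 69 in its body, 8 beyond the end and 13 before the start. For 134 IgG TTS peaks these counts were 42, 72, 6 and 14. In both lists, more of these peaks lay inside the RefSeq body of the gene than within 1 kb of its end.

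**Figure D4:**
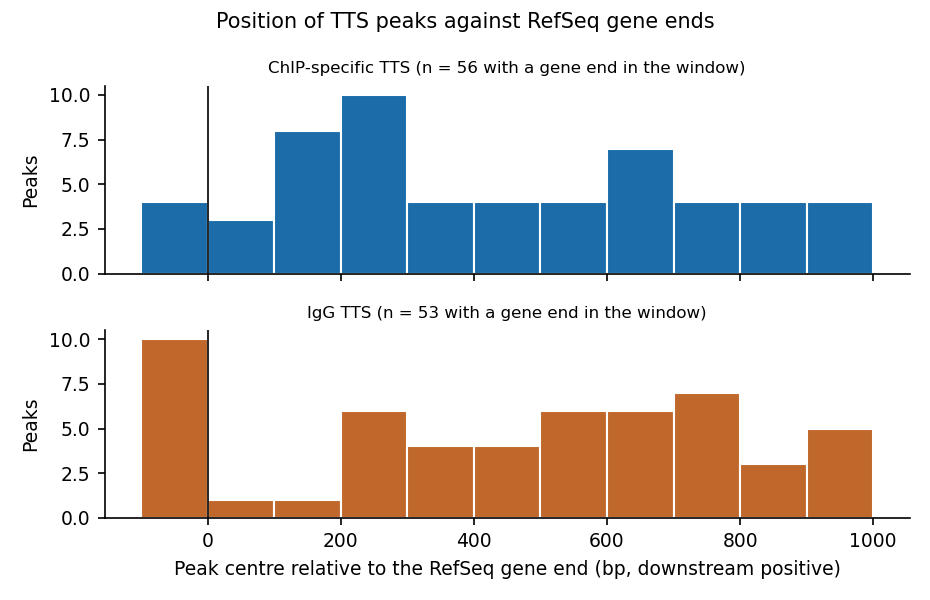
Number of TTS peaks by the position of their centre relative to a RefSeq gene end (bp, downstream positive), for ChIP-specific (top, 56 peaks) and IgG (bottom, 53 peaks) in bins of 100 bp. Peaks are spread over the whole window in both lists.

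The ChIP-specific TTS peaks first by FDR, and then by length, are given with their surroundings. Those with an FDR printed as 0 were at Gm27595, Acsf2 and Myo5b. The peak of Gm27595, a predicted gene, was at chr11:107852326-107852699, 375 bp long and 767 bp from the start. The Acsf2 peak (chr11:94569326-94569674, 350 bp) lay in the body of this acyl-CoA synthetase gene and 373 bp beyond the end of Chad, which encodes the cartilage matrix protein chondroadherin. The peak named for Myo5b, the motor of recycling endosomes, was at chr18:74617801-74618149, with its centre in the body of a coding RefSeq gene. It lay 15202 bp upstream of the start that HOMER named. Without a known strand it could not be placed along the RefSeq gene Myo5b. The Myo5b peak was the only one of these 3 with an IgG peak close by, at 652 bp. At the other two, the nearest IgG peak was 889927 bp and 605577 bp away.

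The next peaks are described by what their named genes encode, beginning with enzymes and transporters. Slc38a8 encodes an amino acid transporter, and its peak (chr8:119507726-119508074, FDR 0.00297) lay 6202 bp upstream of its start and 251 bp beyond the end of Mbtps1, the site-1 protease that processes SREBP factors. The peak at Cyp11b2, aldosterone synthase, had an FDR of 0.00393 (chr15:74850676-74850999). Slc35c2, of the nucleotide-sugar transporter family, held its peak 1261 bp from the start that HOMER named, with an FDR of 0.00416. This was at 0.609 of the gene length from the RefSeq start. Those at Aldh1l2, a mitochondrial folate enzyme, and Pla2g6, a calcium-independent phospholipase, both had an FDR of 0.00515. Of these 5, the Slc35c2 and Pla2g6 peaks lay in the body of the named gene, and the Slc38a8 peak lay before its start.

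Of the genes for secreted or membrane proteins, 4 are described next. The peak at Itih3, a hyaluronan-binding plasma protein chain, lay 835 bp beyond the gene end with an FDR of 0.00416 (chr14:30907601-30907874). That at C1qb, a chain of complement C1q, lay 951 bp beyond its end (chr4:136879001-136879349, FDR 0.00541). Lrrn1, a neuronal leucine-rich repeat membrane protein, had its peak 159 bp beyond the end and 40661 bp from the start (chr6:107570276-107570499, FDR 0.00541). The peak at Stab2, a scavenger receptor for hyaluronan, was in the gene body (chr10:86871051-86871349, FDR 0.00104).

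The other named genes encode nuclear, kinase-anchoring and actin-binding proteins. Zbtb4, a repressor that binds methylated DNA, had its peak 449 bp beyond its end with an FDR of 0.00368 (chr11:69784301-69784649). The peak at Hist1h4a, a histone H4 gene, lay in this short gene 193 bp from its start (chr13:23760901-23761174, FDR 0.00478). The peak at Akap2, an anchor of protein kinase A, was in the body with an FDR of 0.00541, and that named for Dbn1, the actin-binding protein drebrin, lay 7001 bp upstream of the start with an FDR of 0.00503. Of the 15 coding genes named by this order, Zbtb4, Itih3, C1qb and Lrrn1 had the peak after their own end within 1 kb, while strand was not known for Myo5b, Cyp11b2 and Aldh1l2.

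Other ChIP-specific TTS peaks just after the end of their own gene are named here after their values were seen. The peak at Fgd5, an endothelial exchange factor, lay 7 bp after the end (FDR 0.0088). That at Aarsd1, an alanyl-tRNA editing protein, lay 38 bp after it (FDR 0.0102). At Il17rd, a membrane protein that dampens fibroblast growth factor signals, the distance was 301 bp (FDR 0.0252), and at Fgfr2, a receptor for these factors, 264 bp (FDR 0.0339). At Ncl, which encodes nucleolin, it was 894 bp (FDR 0.0361).

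For the microRNAs, the gap between peak and hairpin was 260 bp at Mir295, 328 bp at Mir5116, 402 bp at Mir680-2, 2315 bp at Mir718 and 21422 bp at Mir7025, and 0 at Mir8117. Mir295 belongs to a cluster known from embryonic stem cells, and its peak (chr7:3221101-3221399, FDR 0.0156) lay 235 bp beyond the end of D7Ertd143e. The peak named for Mir7025 lay 219 bp beyond the end of Pdgfra, the receptor for platelet-derived growth factor. In the IgG list the gaps were 806 bp at Mir741 and 270 bp at Gm23450, whose mature product is miR-935, and the peaks at Mir741, Gm23450 and Mir6950 all overlapped a ChIP peak.

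The IgG TTS peaks first in the same order were at Yam1, 1700025C18Rik, Gm25239, Otud7a and Nr1d1, all with an FDR printed as 0 and lengths of 950, 650, 625, 600 and 525 bp. The first 4 overlapped a Nr1d1 ChIP peak. The peak at Nr1d1, the gene of the receptor itself, did not (chr11:98769501-98770024). It lay in the gene body, 1830 bp before the RefSeq end and at 0.754 of the gene length from the RefSeq start. The start that HOMER named, 664 bp away, was thus another than the RefSeq start. The nearest ChIP peak of any class was 781077 bp away. This IgG peak was longer than every ChIP-specific TTS peak.

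Lists of genes known from the clock, T cells and Nr1d1 biology were looked up among the TTS peaks. The 178 genes fell into 8 lists: clock components, the corepressor with NCoR and HDAC3, Th1 cells, other T helper cells, T cell receptor signalling, lipid and glucose metabolism, messenger RNA 3′ end processing and the interferon response. None of the 178 had a ChIP-specific TTS peak, which allows a share of up to 1.69%, and 1 had an IgG TTS peak, Nr1d1. Among 21896 protein-coding RefSeq genes the share with a ChIP-specific TTS peak was 0.699%, and with an IgG TTS peak 0.676%, so that an absence from lists of this size lies within the counting limit. With all classes counted, ChIP-specific peaks named 30 of the 178 (16.9%), beside 17.5% of all protein-coding genes. For IgG peaks of any class the number was 20 (11.2%), beside 17.0%. Clock genes gave 7 of 25 and 5 of 25 in these lists, and Th1 genes 4 of 28 and 2 of 28.

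The 285 peaks belonged to 280 genes, and 5 genes had 2 of them. At Pxdn, a matrix peroxidase, the 2 peaks were 302 bp apart, at the zinc finger gene Zfp800 377 bp and at 1700120C18Rik 602 bp. At Gm25760 and Gm26719 they were 15252 and 15902 bp apart. A ChIP-specific peak of another class was present at 106 of the 280 genes (37.9%) and an IgG peak of any class at 116 (41.4%). These shares were no lower at the genes of IgG TTS peaks. There, an IgG peak of another class was present at 134 of 287 genes (46.7%), and a ChIP-specific peak of any class at 135 (47.0%).

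TTS peaks of both lists were found at 6 genes, 2.14% of the 280 genes of the ChIP-specific list and 2.09% of the 287 of the IgG list. At Otx1, a homeobox gene of brain development, they were neighbours: the ChIP-specific peak (chr11:21996376-21996549, FDR 0.0102) ended 102 bp before the IgG peak (FDR 0.00381) began. At Xkr9 the distance was 227 bp and at Gm14639 777 bp, while at A730045E13Rik, Auts2 and Dlc1 it was over 100 kb. The IgG peak at Xkr9 itself overlapped another ChIP peak by 149 bp, and 1 of those at Dlc1 did so by 299 bp. The Otx1 and Xkr9 peaks, with Olfr365 at 152 bp, were the ChIP-specific TTS peaks nearest to being removed. On the other side of the rule, the smallest overlaps were 49 bp at Arhgap22 and at Dcaf12l1 and 74 bp at RP24-413A18.7. An IgG peak within 1 kb was present at 7 of the 285 (2.46%), beside 2.94% of the other ChIP-specific peaks.

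By gene name, 97 of the 285 peaks were at predicted genes with a Gm name (34.0%), beside 41.1% over all ChIP-specific peaks and 33.1% of IgG TTS peaks. Zinc finger genes with a Zfp name had 5 peaks (1.75%) and 5 in the IgG class (1.72%), beside 0.567% of all ChIP-specific and 0.555% of all IgG peaks. Solute carriers had 4 (1.40%), Slc38a8, Slc35c2, Slc7a10 and Slc23a2, and 2 in the IgG class (0.690%), beside 0.871% and 0.748% over all classes. Genes with an olfactory receptor name had 4 (1.40%) and 3 (1.03%), beside 0.684% and 0.807%, and the IgG member Olfr1003-ps1 is a pseudogene. Genes named for vomeronasal receptors, which like olfactory receptors are used in chemosensory neurons, had 2 (0.702%) and 4 (1.38%), beside 0.608% and 0.561%. All 4 of the IgG class and Vmn1r-ps61 of the ChIP-specific class are pseudogenes, and the other, Vmn1r5, is protein-coding. These counts are a description and were not tested.

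Along the chromosomes, X held most ChIP-specific TTS peaks, with 39 of 285 (13.7%, 10.2 to 18.2). IgG TTS peaks gave 40 of 290 (13.8%), a difference of -0.109 points (-5.77 to 5.57, exact p = 1, adjusted p = 1). Among peaks with an FDR of at most 0.01 the shares were 4 of 86 (4.65%) and 18 of 153 (11.8%), a difference of -7.11 points (-13.8 to 0.795, exact p = 0.101, adjusted p = 0.302). The other classes had 10.2% of their ChIP-specific and 11.0% of their IgG peaks on X. Chromosome 7 held 27 TTS peaks (9.47%, beside 6.00% of all ChIP-specific peaks), and the IgG class was also high there with 31 (10.7%). Chromosome 16 held 1, a share of 0.351% beside 2.96% of all ChIP-specific peaks. None lay on Y, which allows up to 1.05% by the limit of 3 counts and up to 1.33% by the Wilson interval. The whole ChIP-specific list had 174 peaks there (1.20%). The IgG class had 7 (2.41%), beside 1.07% of all IgG peaks. Of these 7, only those at Gm29407 and Gm28412 lay apart from ChIP peaks. Those at Gm21878, Gm29512, Gm28838, Gm28223 and Gm28705 lay over a ChIP peak, and such ChIP peaks had been removed from the ChIP-specific list. The counts on Y are therefore not alike in the 2 lists.

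**Figure D5:**
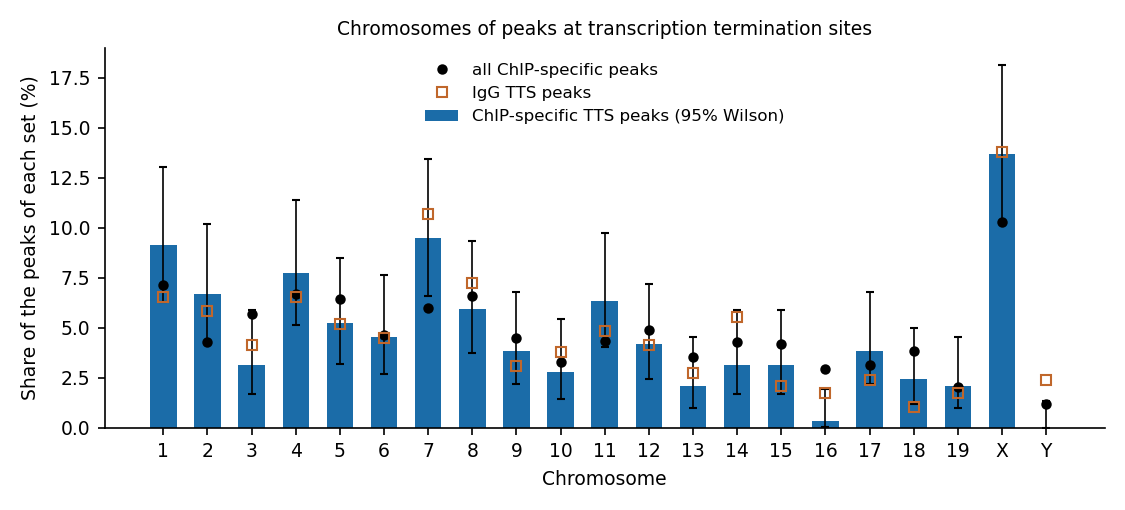
Share of ChIP-specific TTS peaks on each chromosome (blue bars, percent, 95% Wilson intervals), with the share of all ChIP-specific peaks (black points) and of IgG TTS peaks (orange squares). X is highest in both TTS sets, at 13.7% and 13.8%, and on chromosome 16 the bar (0.351%) lies below the point for all peaks (2.96%).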

How the data were processed

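ChIP-seq was measured in 5 libraries. Per the submitters' processing notes, BWA, HOMER and mm10 were used. The peak caller is not given in the sources used here. For each antibody the authors deposited 1 list of peaks over the input, with the q-value of each peak as an FDR (under 0.05, 6 decimals). The score deposited in the annotation equals peak length, which is 1 bp more than the span of the deposited coordinates for each TTS peak. The 14469 annotated ChIP-specific peaks were checked to be those with no IgG overlap of 1 bp. Gene kinds, ends and strand came from RefSeq (GRCm38.p6), because the annotation has no column of gene types. Older symbols were replaced for 10 ChIP-specific and 4 IgG TTS peaks. Python 3.11.15 with scipy 1.17.1 gave two-sided Fisher's exact tests, Newcombe intervals of differences and Wilson intervals at 95%. For a count of 0 the limit is 3 counts. The code was tested on simulated data.

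Genes were named by order of FDR, then length: the first 10 peaks, the first 15 at coding genes, the first 5 of IgG, genes of the 8 lists and genes with more than 1 TTS peak. The members and lists were chosen with earlier results of these data known. Alternatives changed the FDR limit, chromosomes, overlap, comparison set, peaks per gene and gene assignment. Some genes are not reported here.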

Additional observations from a re-analysis of the deposited data

How the results depend on the processing

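None of the 6 tests passed the adjusted threshold of 0.05, and none of 26 alternatives did, with a smallest adjusted p of 0.0918 (exact p = 0.0153). In 23 of the 26 the difference kept its sign. It turned in 3: for an FDR printed as 0, to -0.0683 points (exact p = 1); within 1 kb of a start against IgG peaks that overlap no ChIP peak, to -0.291 points (exact p = 1); and within 5 kb of a start, to -3.73 points (exact p = 0.380, adjusted p = 0.991). The cause was not tested. The TTS share also had an unadjusted exact p of 0.0375 with a larger minimum overlap (0.5 of the ChIP peak), and of 0.0372 without chromosome Y, which was added after the data were seen (adjusted p = 0.225 and 0.223). With 1 peak per nearest gene and class its difference was 0.0852 points (exact p = 0.733). The search for AGGTCA in the peaks, with its alternatives, was not run, because no genome sequence was used here. No paired analysis was possible because the lists are pooled per antibody, and no replicate could be left out. Read depth is unknown.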

Other observations

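Homeobox genes, the transcription factors that pattern the body axis and organs, were looked for after the values had been seen, so no test was made. They were the nearest gene of 10 of the 285 ChIP-specific TTS peaks (3.51%): Cphx1, Pknox2, Otx1, Rhox4d, Otp, Shox2, Hoxc12, Irx6, Hhex and Otx2. Among IgG TTS peaks there were 7 of 290 (2.41%). Over all classes the share was 0.947% of ChIP-specific and 0.859% of IgG peaks. The Otp peak lay 737 bp and the Hhex peak 856 bp beyond the end of their own gene.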
